A study of Mus musculus with 2 samples.

Results

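The 6 genes described here are Foxp3 and the 5 members of the Ikaros family of zinc-finger transcription factors: Ikzf1 (Ikaros), Ikzf2 (Helios), Ikzf3 (Aiolos), Ikzf4 (Eos) and Ikzf5 (Pegasus). They were chosen by name and make up 6 of the 32285 gene rows of each library. They were followed together with the accessibility peaks within 50 kb of the interval that the feature lists give each gene (the span of its annotated start sites), which were 80 of 85738 peaks in the knockout library and 88 of 83851 in the control library. The nuclei came from CD4+ CD44+ CD62L- cells, negative for CD8a, CD11c, CD45R and F4/80, sorted from pooled colon and small intestine of mice aged 26 to 33 weeks. The knockout library was made from CD4creZfp362flox/flox mice, in which Cre recombinase driven by Cd4 regulatory sequence acts on floxed Zfp362 alleles, and the control library from Zfp362flox/flox mice, which carry the same floxed alleles without Cre. RNA and open chromatin were read from the same nuclei with the 10x Multiome assay. There was 1 library per genotype, and the labels name 7 mice without saying how they were divided. No difference between genotypes therefore has a replicate check, library and genotype cannot be told apart, and no test was made. Intervals are at the 95% level and reflect counting alone.

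Foxp3 is the lineage-defining transcription factor of regulatory T cells, which restrain immune responses and are abundant in the gut wall. Ikaros factors bind DNA through zinc fingers, pair with each other and recruit co-repressor complexes. In regulatory T cells, Helios is known for stabilising the suppressive state and Eos as a partner of Foxp3 in gene silencing, while Ikaros and Aiolos are expressed widely among lymphocytes and Pegasus is a broadly expressed relative. Innate lymphoid cells make the cytokines of helper T cells without a T-cell receptor, and one kind of them carries the receptors Kit and Il1r1.

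The 6 genes lie on 5 chromosomes of the mm10 build, with gene bodies from GENCODE vM21. Foxp3 occupies chrX:7573644-7595245 on the plus strand, where Flicr on the same strand and Gm36995, Ppp1r3f and Ccdc22 on the other overlap it. Ikzf1 occupies chr11:11685003-11772926 on the plus strand, and on the minus strand lie Ikzf2 at chr1:69531214-69687245, Ikzf3 at chr11:98464902-98546031, Ikzf4 at chr10:128630843-128645991 and Ikzf5 at chr7:131388652-131410521. Each Ikaros gene also overlaps annotated neighbours, among them Fgfr2 and Pstk at Ikzf5. Whether counting used strand was not stated, so reads of overlapping genes cannot be told apart. RefSeq (build GRCm38.p6) held promoter entries for 3 of the 6 genes, 5 entries in all, and Ikzf2, Ikzf3 and Ikzf4 are named only. The 250 bases before 4 of these starts are shown because the peaks over them differ in how far they follow the cell types, with each CpG dinucleotide, the site of DNA methylation, in capitals. They are chrX:7579426-7579675 (Foxp3), chr11:11685675-11685924 (Ikzf1), chr11:11689927-11690176 (an internal start of Ikzf1) and chr7:131410479-131410728 on the minus strand (Ikzf5).
Foxp3: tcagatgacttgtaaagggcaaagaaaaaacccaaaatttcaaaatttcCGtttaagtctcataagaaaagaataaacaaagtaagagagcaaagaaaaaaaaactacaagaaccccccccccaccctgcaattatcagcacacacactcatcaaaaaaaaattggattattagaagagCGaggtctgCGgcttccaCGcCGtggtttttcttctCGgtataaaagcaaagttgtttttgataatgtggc
Ikzf1: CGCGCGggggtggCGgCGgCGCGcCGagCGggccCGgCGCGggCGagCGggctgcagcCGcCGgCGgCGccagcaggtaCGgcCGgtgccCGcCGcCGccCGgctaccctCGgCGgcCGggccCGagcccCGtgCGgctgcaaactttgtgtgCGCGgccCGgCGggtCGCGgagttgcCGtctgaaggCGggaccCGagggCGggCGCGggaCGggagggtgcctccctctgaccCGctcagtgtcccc
Ikzf1 internal start: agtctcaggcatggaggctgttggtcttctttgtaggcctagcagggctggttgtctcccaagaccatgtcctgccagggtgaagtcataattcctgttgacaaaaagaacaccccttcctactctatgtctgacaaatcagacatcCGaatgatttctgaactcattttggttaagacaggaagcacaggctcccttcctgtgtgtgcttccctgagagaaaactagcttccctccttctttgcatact
Ikzf5: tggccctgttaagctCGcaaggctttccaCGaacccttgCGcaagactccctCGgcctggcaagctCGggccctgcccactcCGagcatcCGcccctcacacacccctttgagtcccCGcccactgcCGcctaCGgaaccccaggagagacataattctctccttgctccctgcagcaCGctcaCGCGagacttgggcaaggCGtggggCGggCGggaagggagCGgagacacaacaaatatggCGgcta
The Foxp3 sequence held 6 CpG and 37.6% G or C, the first Ikzf1 sequence 44 CpG, the internal one 1 and the Ikzf5 sequence 18. Over 32841 mouse promoters of the same length the median was 6 CpG, and 99.5% of them held fewer than the first Ikzf1 sequence. The letters GGGAA, a core that Ikaros zinc fingers bind, were searched on both strands and occurred in 56.2% of all promoters. They were not in the Foxp3 window or the first Ikzf1 window, occurred 2 times in the internal Ikzf1 window (as TTCCC on the strand shown) and 1 time in the Ikzf5 window.

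Nuclei were divided by their own RNA. A nucleus with at least 1 unique molecular identifier (UMI, a tag marking 1 captured RNA molecule) of Foxp3 was Foxp3-positive. One without Foxp3 but with a UMI of Cd3d, Cd3e or Cd3g was other Cd3-positive, and one with neither but with a UMI of Kit or Il1r1 was Cd3-negative Kit/Il1r1-positive. The Foxp3-positive gate held 249 of 2346 knockout nuclei (10.6%, 9.40 to 11.9, Clopper-Pearson) and 420 of 4176 control nuclei (10.1%, 9.16 to 11.01). Cd3-negative Kit/Il1r1-positive nuclei numbered 605 in the knockout library and 1010 in the control library, and other Cd3-positive nuclei 1164 and 2111. The libraries held 9348999 UMIs (knockout) and 10803590 UMIs (control), and 11 barcodes occurred in both. Zfp362 gave 19 UMIs in Foxp3-positive, 3 in Cd3-negative Kit/Il1r1-positive and 33 in other Cd3-positive knockout nuclei, and 18, 14 and 54 in the same gates of the control library. The labels do not say which exons were deleted, so these counts do not check the deletion.

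The gates held some RNA of the cell types they were meant to leave out. The 12 T-cell markers summed to 1727 UMIs per 1000000 UMIs of the gate (CPM) in Cd3-negative Kit/Il1r1-positive knockout nuclei and 1424 CPM in the control nuclei of that gate, with the 3 Cd3 genes at 0 by the gating rule. In other Cd3-positive nuclei they summed to 6836 CPM in the knockout library and 7132 CPM in the control library. The 10 markers of Kit-bearing innate lymphoid cells summed to 1974 CPM in Foxp3-positive knockout nuclei and 1904 CPM in the control nuclei of that gate, against 5566 CPM and 5835 CPM in Cd3-negative Kit/Il1r1-positive nuclei, and none was at 0 in these 3 gates.

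A minority of very deep nuclei carried most of the RNA of the Foxp3-positive gate. Deep nuclei, those with over 2 times the median UMIs of their library, were 119 of 249 Foxp3-positive knockout nuclei with 85.6% of that gate's UMIs, and 121 of 420 control nuclei with 59.4%. Among them 70.6% (knockout) and 53.7% (control) had UMIs of both a Cd3 gene and Kit or Il1r1, against 5.38% and 8.70% of the less deep Foxp3-positive nuclei. The Foxp3-positive gate was not alone in this. In other Cd3-positive nuclei 65.2% (knockout) and 55.6% (control) of deep nuclei had both, against 16.98% and 12.4% of the less deep. Deep nuclei held 59.4% and 34.9% of the UMIs of that gate. Median depths of deep and less deep Foxp3-positive nuclei were 11618 and 2132 UMIs (knockout) and 5879 and 2105 UMIs (control). How much depth alone adds to the share with both was not tested. The 6 regulatory T-cell markers, Foxp3 among them, summed to 2488 CPM in deep and 5656 CPM in less deep Foxp3-positive knockout nuclei, and to 3197 CPM and 5800.1 CPM in the control library. Whether a deep barcode holds more than 1 nucleus was not tested and no doublet caller was run, so the main results are given with and without these nuclei.

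Foxp3 was a sparse transcript, and most of it came from Cd3-positive nuclei. All Cd3-positive nuclei together, with or without Foxp3, gave 352 of 386 Foxp3 UMIs (49.7 CPM) in the knockout library and 534 of 607 (73.1 CPM) in the control library, a log2 ratio of -0.56 (-0.76 to -0.36). Without deep nuclei the levels were 67.5 CPM and 79.98 CPM, a log2 ratio of -0.24 (-0.53 to 0.03), whose interval took in 0. In the Foxp3-positive gate, where the rule sets its presence, Foxp3 stood at 177 CPM in knockout and 364 CPM in control nuclei, and at 577 CPM and 612 CPM without deep nuclei.

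The share of nuclei with Foxp3 was close in the genotypes. A Foxp3 UMI was found in 15.9% of Cd3-positive knockout nuclei and 14.5% of control nuclei, at median depths of 2930 and 2167 UMIs. With every nucleus thinned at random to 1000 UMIs the shares were 5.75% (4.57 to 7.13) and 5.999% (5.09 to 7.02), and these intervals overlapped. In all Cd3-negative Kit/Il1r1-positive nuclei, which should lack the gene, the thinned shares were 0.166% (knockout) and 0.400% (control), and 1.47% and 1.17% before thinning at median depths of 2108 and 2004 UMIs. Of the Foxp3-positive nuclei, 162 in the knockout library and 291 in the control library rested on 1 UMI, so nuclei that expressed Foxp3 without a captured molecule fall into the other gates.

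Ikzf2 was higher in Foxp3-positive than in other Cd3-positive nuclei in both libraries. Knockout Foxp3-positive nuclei gave 4660 UMIs (2138 CPM, 2077 to 2200.1) against 7205 UMIs (1443 CPM) in other Cd3-positive nuclei, a log2 ratio of 0.57 (0.51 to 0.62). Control Foxp3-positive nuclei gave 3658 UMIs (2197 CPM, 2126 to 2269) against 7308 UMIs (1265 CPM), a log2 ratio of 0.80 (0.74 to 0.85). Neither interval reached 0, and the separation was wider among less deep nuclei. Among nuclei that were not deep the levels were 3185 CPM against 1516 CPM in the knockout library and 2642 CPM against 1305 CPM in the control library, with log2 ratios of 1.07 (0.97 to 1.17) and 1.02 (0.94 to 1.10). At 1000 UMIs per nucleus 72.02% of Foxp3-positive and 50.4% of other Cd3-positive knockout nuclei had an Ikzf2 UMI, and 69.9% and 43.5% of the control nuclei.

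Ikzf4 was sparse and also higher in Foxp3-positive nuclei, clearly so in the control library. It gave 62 UMIs (28.4 CPM, 21.8 to 36.5) in knockout Foxp3-positive nuclei against 107 UMIs (21.4 CPM) in other Cd3-positive nuclei, a log2 ratio of 0.41 (-0.07 to 0.87) whose interval took in 0. In the control library it gave 86 UMIs (51.6 CPM, 41.3 to 63.8) against 123 UMIs (21.3 CPM), a log2 ratio of 1.28 (0.86 to 1.69). Without deep nuclei the log2 ratios were 1.35 (0.53 to 2.08) in the knockout library, on 21 and 54 UMIs, and 1.29 (0.69 to 1.85) in the control library, on 38 and 87 UMIs. The ratios of the libraries thus lay apart with deep nuclei and close together without them.

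Ikzf1 ran the other way and was lower in Foxp3-positive nuclei. It stood at 281 CPM against 327 CPM in other Cd3-positive nuclei in the knockout library, giving a log2 ratio of -0.22 (-0.35 to -0.08), and at 195 CPM against 319 CPM in the control library, a log2 ratio of -0.71 (-0.88 to -0.54). With deep nuclei left out the levels were 166 CPM against 336 CPM in the knockout library and 138 CPM against 318 CPM in the control library, with log2 ratios of -1.01 (-1.45 to -0.61) and -1.20 (-1.53 to -0.90). The same direction therefore held in both libraries and was larger among less deep nuclei.

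Ikzf3 and Ikzf5 differed little between the T-cell gates. Ikzf3 stood at 642 CPM against 731 CPM in the knockout library, giving a log2 ratio of -0.19 (-0.28 to -0.10), and at 596 CPM against 604 CPM in the control library, a log2 ratio of -0.02 (-0.12 to 0.08). Ikzf5 gave 72 and 160 UMIs in the knockout library (0.05, -0.38 to 0.45) and 50 and 223 in the control library (-0.35, -0.84 to 0.09), and neither interval excluded 0.

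At a log2 ratio of at least 1 in size, 0 of the 5 Ikaros genes passed between Foxp3-positive and other Cd3-positive nuclei in the knockout library, where 4.03% of all genes with at least 20 UMIs did, and 1 of 5, Ikzf4, in the control library, where 5.87% did. Without deep nuclei Ikzf1, Ikzf2 and Ikzf4 passed in each library, 3 of 5, where 14.5% (knockout) and 10.7% (control) of all such genes did. Leaving out the Foxp3-positive and other Cd3-positive nuclei with a Kit or Il1r1 UMI, an alternative chosen after the data had been seen, gave log2 ratios of 1.09 and 1.04 for Ikzf2, 1.42 and 1.58 for Ikzf4 and -0.70 and -1.01 for Ikzf1, knockout library first in each pair.

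**Figure D1:**
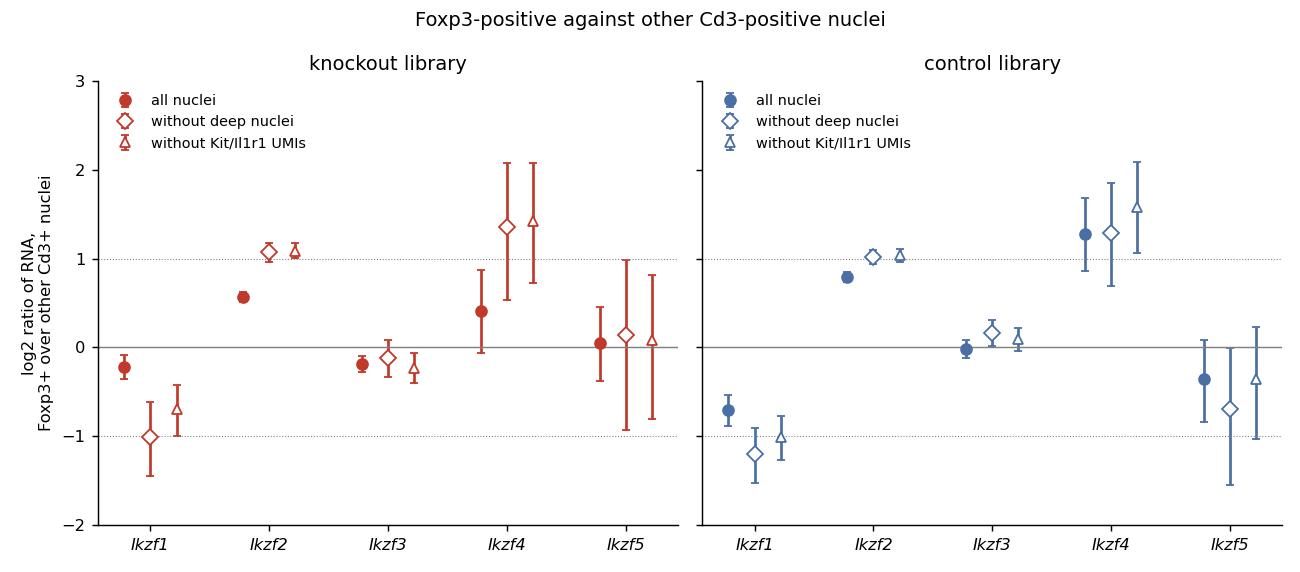
Log2 ratio of RNA in Foxp3-positive over other Cd3-positive nuclei for the 5 Ikaros genes, in the knockout library (left) and the control library (right), with 95% counting intervals, counting all nuclei, leaving out deep nuclei or leaving out nuclei with a Kit or Il1r1 UMI. Without deep nuclei Ikzf2 stands at 1.07 and 1.02 and Ikzf1 at -1.01 and -1.20.

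Foxp3 and Ikzf2 were found together nucleus by nucleus at equal depth, which reads the same UMIs as the gate comparison in another way. Among Cd3-positive knockout nuclei thinned to 1000 UMIs, Foxp3 was found in 20 of 623 nuclei without an Ikzf2 UMI (3.21%, 1.97 to 4.91) and in 29 of 214 nuclei with 4 or more (13.6%, 9.27 to 18.9). In the control library it was found in 40 of 1263 nuclei (3.17%, 2.27 to 4.29) and 44 of 352 nuclei (12.5%, 9.23 to 16.4). The intervals at the ends did not overlap in either library, nor without deep nuclei, where the shares were 2.72% and 12.3% in the knockout library and 3.34% and 13.4% in the control library. Most nuclei rich in Ikzf2 gave no Foxp3 UMI at this depth, at which Foxp3 was recovered in 36.6% of Foxp3-positive knockout nuclei and 43.1% of those in the control library. Those nuclei had a Foxp3 UMI at full depth by the gating rule. The rates therefore leave out nuclei that expressed Foxp3 without a captured molecule.

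For Ikzf1 and Ikzf3 the intervals of the classes of nuclei overlapped. Foxp3 was found in 6.17% of knockout and 6.65% of control nuclei without an Ikzf1 UMI, and in 4.71% and 3.23% of those with 2 or 3. For Ikzf3 the shares were 5.58% and 5.70% without a UMI and 6.04% and 5.73% with 2 or 3, and they were 6.69% and 6.89% with 1 UMI and 1.85% and 6.35% with 4 or more. With 1 Ikzf4 UMI Foxp3 was found in 7 of 32 nuclei (21.9%, 9.28 to 39.97) in the knockout library and 4 of 49 nuclei (8.16%, 2.27 to 19.6) in the control library, against 5.37% and 5.88% without one.

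**Figure D2:**
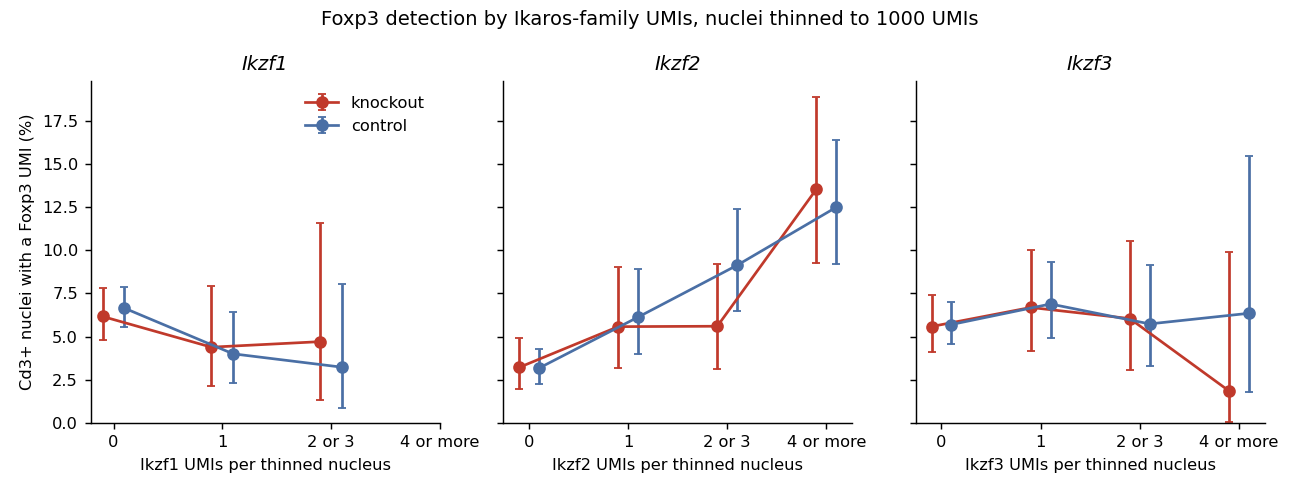
Percent of Cd3-positive nuclei with a Foxp3 UMI by the number of Ikzf1, Ikzf2 or Ikzf3 UMIs in the same nucleus, all thinned to 1000 UMIs, with 95% Clopper-Pearson intervals; classes of under 20 nuclei are not drawn. At 4 or more Ikzf2 UMIs the share is 13.6% in the knockout library and 12.5% in the control library.

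Ikzf2 and Ikzf3 were lower in Cd3-negative Kit/Il1r1-positive than in other Cd3-positive nuclei. Ikzf3 stood at 258 CPM (233 to 285) against 731 CPM in the knockout library, giving a log2 ratio of -1.50 (-1.66 to -1.35), and at 227 CPM (208 to 248) against 604 CPM in the control library, a log2 ratio of -1.41 (-1.55 to -1.27). Ikzf2 stood at 647 CPM (607 to 689) against 1443 CPM in the knockout library, giving a log2 ratio of -1.16 (-1.26 to -1.06), and at 555 CPM (524 to 587) against 1265 CPM in the control library, a log2 ratio of -1.19 (-1.28 to -1.10). Both genes were thus more than 2-fold lower in each library. Ikzf4 gave 19 UMIs (knockout) and 13 UMIs (control), with log2 ratios of -0.72 (-1.54 to -0.04) and -1.81 (-2.81 to -1.03). Ikzf1 was slightly lower, at 277 CPM and 281 CPM, with log2 ratios of -0.24 (-0.40 to -0.09) and -0.18 (-0.32 to -0.05), and Ikzf5 gave 0.08 (-0.42 to 0.53) and -0.18 (-0.59 to 0.19).

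Past a log2 ratio of 1 in size were 2 of the 5 Ikaros genes in the knockout library and 3 in the control library, where 24.3% and 26.7% of all genes with at least 20 UMIs were, so differences of this size were common between these gates. The median log2 ratio of all genes with at least 100 UMIs was -0.11 in both libraries, and the values above are given before subtracting it. What the T-cell RNA found in the Cd3-negative gate adds to its Ikzf2 and Ikzf3 levels was not tested.

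**Figure D3:**
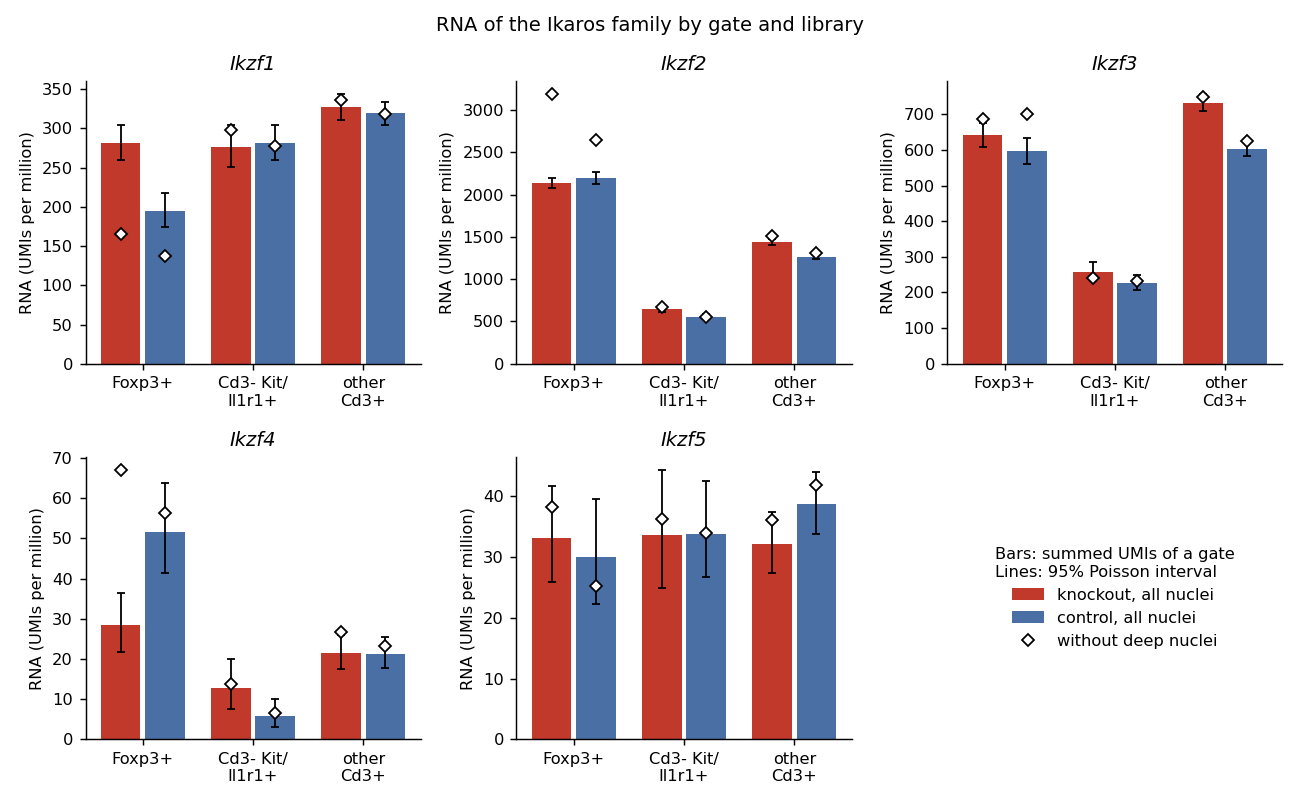
RNA level in CPM (y axes from 0) of the 5 Ikaros genes in the 3 gates, knockout bars left of control bars, with 95% Poisson intervals and, as open diamonds, levels without deep nuclei. Ikzf2 is highest in Foxp3-positive nuclei (2138 knockout, 2197 control) and lowest in Cd3-negative Kit/Il1r1-positive nuclei (647 and 555).

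Between genotypes, Ikzf1 and Ikzf4 were past a log2 ratio of 0.5 in Foxp3-positive nuclei, the gate that deep nuclei dominate. The log2 ratio of knockout over control was 0.53 (0.33 to 0.73) for Ikzf1 and -0.86 (-1.36 to -0.37) for Ikzf4, so 2 of 5 were past 0.5 in size there, where 24.9% of all genes were. Without deep nuclei Ikzf1 gave 0.27 (-0.25 to 0.77) and Ikzf4 0.27 (-0.59 to 1.06), both with intervals that took in 0, and the direction of Ikzf4 was reversed. Ikzf2 gave -0.04 (-0.10 to 0.02) with all nuclei and 0.27 (0.16 to 0.38) without deep ones, and Ikzf3 0.11 (-0.01 to 0.23) and -0.03 (-0.27 to 0.20). Ikzf5 gave 0.13 (-0.40 to 0.69) with all nuclei and 0.62 (-0.59 to 1.76) without deep ones, which made it the 1 of 5 then past 0.5, where 28.5% of all genes were.

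In other Cd3-positive nuclei 0 of 5 were past 0.5 in size, where 16.1% of all genes were. Ikzf3 stood at 731 CPM in knockout and 604 CPM in control nuclei, a log2 ratio of 0.28 (0.21 to 0.34), and Ikzf2 at 1443 CPM and 1265 CPM, a log2 ratio of 0.19 (0.14 to 0.24). Ikzf1 (0.03, -0.06 to 0.13), Ikzf4 (0.01, -0.38 to 0.39) and Ikzf5 (-0.27, -0.57 to 0.03) had intervals that took in 0. In Cd3-negative Kit/Il1r1-positive nuclei 1 of 5 was past 0.5, Ikzf4 at 1.10 (0.03 to 2.26), where 20.4% of all genes were, and Ikzf2 gave 0.22 (0.10 to 0.34). Cd4, which encodes the co-receptor used for the sort, stood at 733 CPM in knockout and 269.8 CPM in control other Cd3-positive nuclei, so the libraries differed more in it than in any Ikaros gene of that gate. In Foxp3-positive nuclei it stood at 651 CPM (knockout) and 219 CPM (control). The libraries were closer in Cd3-negative Kit/Il1r1-positive nuclei, at 301 CPM and 281 CPM. The cause was not tested.

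Genes that work with these factors were taken as lists. Of 20 genes of the regulatory T-cell signature, 18 of 19 measured were above 0 in knockout Foxp3-positive over other Cd3-positive nuclei (median log2 ratio 0.44) and 19 of 20 in the control library (median 0.78), while the medians over all genes were within 0.01 of 0. At least 1 in log2 ratio were 1 and 6 of them, where 1.86% and 2.60% of all genes were. With deep nuclei left out, 19 of 19 and 19 of 19 were above 0, and those of at least 1 were 9 and 13 of 19, where 5.61% and 4.26% of all genes were. Il10, an anti-inflammatory cytokine, stood at 386 CPM against 161 CPM in the knockout library and 503 CPM against 207 CPM in the control library, log2 ratios of 1.26 and 1.28. Klrg1, a receptor of differentiated effector cells, gave 0.96 and 1.36, Izumo1r, which encodes folate receptor 4, -0.06 and 0.16, and Entpd1, which encodes the ectonucleotidase CD39, 0.30 and -0.13. Deep nuclei aside, these ratios were 2.20 and 1.87 for Il10, 1.99 and 1.73 for Klrg1, 0.60 and 0.34 for Izumo1r and 1.15 and 0.43 for Entpd1.

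In knockout over control Foxp3-positive nuclei, 7 of 19 signature genes were lower past 0.5 (median -0.40), where 13.9% of all genes were. Without deep nuclei 1 of 19 was (median -0.03), where 15.5% of all genes were.

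Partners of the 2 families were compared between the same T-cell gates, where 4.03% (knockout) and 5.87% (control) of all genes were past a log2 ratio of 1 in size, and 14.5% and 10.7% with deep nuclei left out. Of 25 partners and regulators of Foxp3, 1 in the knockout library and 0 in the control library were past a log2 ratio of 1, both directions counted, with medians of -0.05 and -0.06. That gene was Uhrf1, a maintenance factor of DNA methylation, at 3 UMIs against 23 (-1.55), and it gave -0.74 in the control library. Rel, an NF-kB subunit, gave 0.28 and 0.41, Stat5a, which relays interleukin-2 signals, 0.15 and 0.56, and Stub1, a ubiquitin ligase, -0.42 and -0.34. Of 17 co-repressor genes, 1 (knockout) and 0 (control) were past 1. It was Ctbp2, at 18 UMIs against 20 in the knockout library (1.05, 0.04 to 2.04). In the control library Ctbp2 gave 7 UMIs against 29 (-0.18, -1.69 to 0.97). Mta3 and Rbbp7, subunits of the NuRD complex, gave -0.26 and -0.56, and -0.38 and -0.12, while Mbd2 gave 0.35 and 0.11. None of the 5 genes of the cereblon ligase, through which certain drugs degrade Ikaros and Aiolos in human cells, was past 1: its receptor Crbn gave 0.04 and -0.13, Ddb1 -0.04 and 0.51, Cul4b 0.35 and 0.31, and Rbx1 -0.17 and 0.01. Leaving out deep nuclei, 0 of 24 partners of Foxp3 (knockout) and 1 of 25 (control, Uhrf1 again, lower) were past 1, and so were 0 of 15 and 0 of 17 co-repressors and 0 of 5 cereblon ligase genes in each library. Ddb1 then gave 0.86 and 0.79, and Cul4b 0.09 and -0.52.

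Among 5 genes reported as targets of Ikaros factors in T cells, 1 was higher and 0 lower past 1 in the knockout library, and 1 and 3 in the control library, where the shares of all genes, both directions counted, were the 4.03% and 5.87% above. The higher gene, here and without deep nuclei, was Il10. It is also counted in the regulatory T-cell signature above and is not a separate result. With deep nuclei left out 1 was higher and 3 lower in each library, where 14.5% and 10.7% of all genes were past 1. Ifng, the cytokine of type 1 helper cells, stood at 73.4 CPM in Foxp3-positive against 119 CPM in other Cd3-positive knockout nuclei (-0.69) and at 19.2 CPM against 141 CPM in the control library (-2.86). Tbx21, which encodes T-bet, gave -0.55 and -1.66, and Bcl6, the factor of follicular helper cells, 0.04 and -0.12. When deep nuclei were left out the ratios of the libraries were closer, at -3.26 and -3.18 for Ifng and -1.84 and -2.54 for Tbx21. These values are given without intervals. Ifng UMIs in the less deep Foxp3-positive nuclei of both libraries together fell below the minimum for a knockout over control ratio. The Ifng values therefore rest on few molecules, and their closeness was not tested.

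The gates were divided further by UMIs of lineage factors of helper T cells into 9 subgates in each library. Over these 18 points, the gene whose log2 level was most like that of Ikzf2 was Tnfrsf9, which encodes the costimulatory receptor 4-1BB (Pearson r = 0.95), followed by Mmd (0.93) and Reps1 (0.92). These are descriptions among 5302 genes over points that share libraries and depth. Nr3c1, the glucocorticoid receptor (0.98), Prkca (0.98) and Abcb1a (0.97) were most like Ikzf3, Epsti1 (0.91), Dennd4c (0.81) and Plk3 (0.78) most like Ikzf1, and Areg, which encodes amphiregulin (0.85), Herc1 (0.83) and Atp9b (0.82) most like Ikzf4. Rbm17 (0.86), Rraga (0.76) and Ssr3 (0.75) were most like Ikzf5, and Lamc1 (0.85), Ldlrad4 (0.85) and Sema4b (0.84) most like Foxp3, whose UMIs define 3 of the subgates.

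Chromatin accessibility was not used for the gates, and shared peaks over the Foxp3 gene were higher in Foxp3-positive nuclei. The intronic peak and the peak within Ppp1r3f given below came from the high end of the Foxp3 window. The exonic peaks were added after their values had been seen. High ratios at these peaks were therefore set in part by the choice. A 5′ intron of Foxp3 holds the conserved element CNS2, known for losing DNA methylation in stable regulatory T cells. The intronic peak at chrX:7583699-7584600, centred 4.58 kb after the start site, had 13.3, 1.37 and 7.19 counts per 1000000 counts in shared peaks (peak CPM) in Foxp3-positive, Cd3-negative Kit/Il1r1-positive and other Cd3-positive knockout nuclei, and 24.6, 1.24 and 8.57 in the control nuclei. The log2 ratio of Foxp3-positive over other Cd3-positive nuclei was 0.89 (0.37 to 1.49) in the knockout library, on 49 and 65 fragments, and 1.52 (0.96 to 2.03) in the control library, on 54 and 71 fragments. Leaving out deep nuclei gave ratios of 1.69 (0.82 to 2.66) and 2.06 (1.35 to 2.69), so the difference was seen in both libraries either way. In Cd3-negative Kit/Il1r1-positive nuclei the peak was nearly closed, at -2.32 and -2.72 relative to other Cd3-positive nuclei. The log2 ratio of knockout over control in Foxp3-positive nuclei was -0.89 (-1.42 to -0.25), and -0.39 (-1.27 to 0.54) without deep nuclei, where the interval took in 0.

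The peak over the Foxp3 start site, chrX:7578948-7579955, which contains the printed sequence with 6 CpG, had 3.43, 0.608 and 3.06 peak CPM in the same 3 gates of the knockout library and 9.05, 1.10 and 4.63 in the control library. Its Foxp3-positive over other Cd3-positive log2 ratios were 0.18 (-0.89 to 1.17) and 0.98 (0.16 to 1.80), on only 13 and 21 Foxp3-positive fragments. Its log2 ratio of knockout over control in Foxp3-positive nuclei was -1.39 (-2.51 to -0.32), on those 13 and 21 fragments and with deep nuclei counted. Exonic peaks at chrX:7592970-7593900 and chrX:7594786-7595853 had 4.002, 1.97 and 1.87 and then 7.15, 0.911 and 4.02 in the knockout library, and 5.80, 1.24 and 3.31 and then 9.28, 0.550 and 6.07 in the control library. In all 4 of these shared peaks, which are those between the Foxp3 start site and the end of the gene, the Foxp3-positive value was the highest of the 3 gates in both libraries. Before the gene, a peak within Ppp1r3f and Gm36995 at chrX:7566117-7566882 had 10.9, 7.75 and 8.32 in the knockout library and 16.2, 6.73 and 7.07 in the control library, with log2 ratios of 0.39 (-0.20 to 0.96) and 1.20 (0.61 to 1.86).

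**Figure D4:**
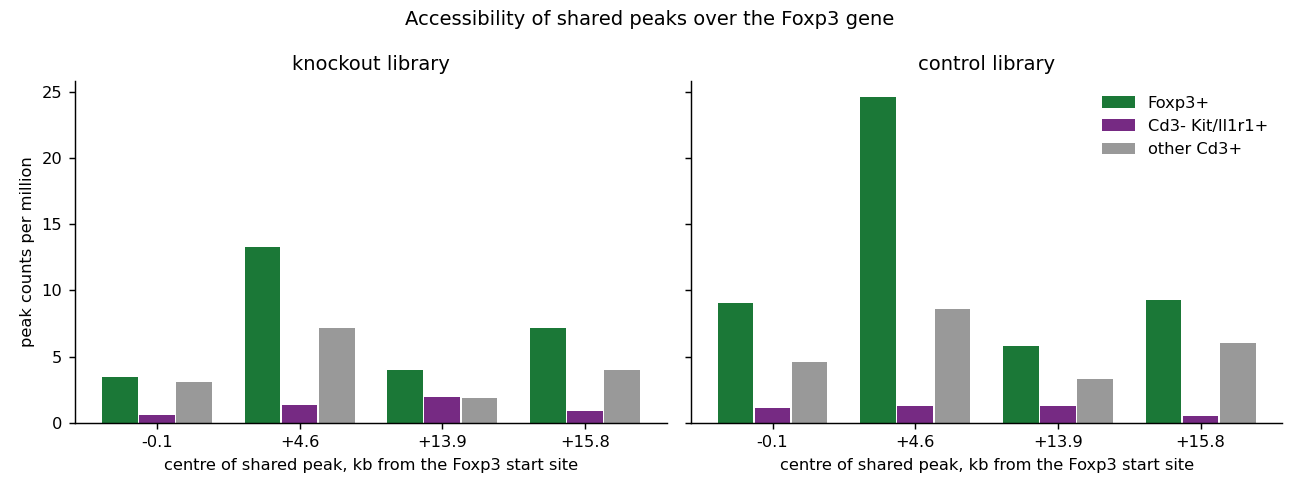
Peak CPM (y axis) for the 4 shared peaks from the Foxp3 start site to the end of the gene, placed by distance of the centre from the start site in kb (x axis), with 1 bar per gate, in the knockout library (left) and the control library (right). The intronic peak reaches 13.3 in knockout and 24.6 in control Foxp3-positive nuclei, against 1.37 and 1.24 in Cd3-negative Kit/Il1r1-positive nuclei.

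No shared peak with at least 20 fragments in the window of an Ikaros gene was 2-fold higher in Foxp3-positive than in other Cd3-positive nuclei with all nuclei counted, while a few were once deep nuclei were left out. The windows were set around start sites and did not reach the far ends of Ikzf1, Ikzf2 and Ikzf3. Peaks there are not described. Of the 71 shared peaks near the 6 genes, 3 of 69 with at least 20 fragments were past a log2 ratio of 1 in size in the knockout library, where 4.69% of all shared peaks were, and 6 of 70 in the control library, where 9.14% were. Those that were higher, 1 in the knockout and 4 in the control library, all lay near Foxp3, where 2.09% and 3.93% of all shared peaks were higher. Leaving out deep nuclei, 12 of 54 peaks with at least 20 fragments were past 1 in size in the knockout library (all shared peaks 17.5%) and 15 of 64 in the control library (all 15.8%). Higher among them were 6 in the knockout library (all 5.90%), of which 3 lay near Foxp3 and 1 each near Ikzf2, Ikzf3 and Ikzf4. In the control library 8 were higher (all 5.86%), 6 of them near Foxp3 and 1 each near Ikzf2 and Ikzf4.

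Around Ikzf2, whose RNA was higher in Foxp3-positive nuclei, an intronic peak at chr1:69637883-69638814 had 5.29 against 3.85 peak CPM in the knockout library (0.47, -0.31 to 1.30) and 9.28 against 4.69 in the control library (0.99, 0.19 to 1.84). Around Ikzf4, an intergenic peak at chr10:128619810-128620714, 25.7 kb after the start site, had 7.58 against 3.96 in the knockout library (0.94, 0.25 to 1.78) and 7.43 against 4.25 in the control library (0.82, -0.26 to 1.56), and without deep nuclei its log2 ratios were 2.02 (0.60 to 3.51) and 1.62 (0.21 to 2.61). These peaks were chosen for their extreme ratios after the values had been seen. The Ikzf2 and Ikzf4 peaks came from the high end of their windows, and the Ikzf1 peak given next from the low end. A match in direction with the RNA was therefore set by the choice. Around Ikzf1, whose RNA was lower, an intronic peak at chr11:11724179-11724877 had 3.001 against 5.21 in the knockout library (-0.77, -1.96 to 0.08) and 2.79 against 8.44 in the control library (-1.55, -3.17 to -0.48). A peak between genes in the Ikzf3 window at chr11:98595686-98596523 gave 0.64 (0.13 to 1.25) and 0.29 (-0.30 to 0.91).

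Cd3-negative Kit/Il1r1-positive nuclei differed from other Cd3-positive nuclei at single elements of the Ikaros genes. Past a log2 ratio of 1 in size were 24 of 71 peaks near the 6 genes in the knockout library and 24 of 69 in the control library, where 34.6% and 38.4% of all shared peaks were, so the share was near the background. Leaving out deep nuclei, 19 of 61 and 29 of 68 were, against 35.2% and 39.9% of all shared peaks. A peak before Ikzf2 at chr1:69691849-69692735 had 17.01, 3.65 and 16.7 peak CPM in Foxp3-positive, Cd3-negative Kit/Il1r1-positive and other Cd3-positive nuclei of the knockout library and 19.03, 1.92 and 16.8 in the control library, with Cd3-negative over other Cd3-positive log2 ratios of -2.17 (-3.07 to -1.31) and -3.08 (-4.51 to -2.09). A peak before Ikzf3 at chr11:98549491-98550293 had 14.3, 3.65 and 14.9 in the knockout library and 18.3, 2.34 and 15.3 in the control library, with log2 ratios of -2.003 (-2.57 to -0.98) and -2.67 (-3.71 to -1.70). An Ikzf1 intronic peak at chr11:11725386-11726661 had 24.3, 11.1 and 26.7 and 36.7, 11.7 and 31.7, with log2 ratios of -1.26 (-1.79 to -0.76) and -1.43 (-1.99 to -1.02). These 3 peaks, chosen after their values had been seen, were open in both T-cell gates and lower in the Cd3-negative gate.

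Other elements ran the opposite way. An Ikzf2 intronic peak 6.26 kb after the start site, chr1:69680484-69681481, had 34.2 peak CPM in Cd3-negative Kit/Il1r1-positive against 20.2 in other Cd3-positive knockout nuclei, and 34.8 against 15.9 in the control library, log2 ratios of 0.76 (0.40 to 1.09) and 1.13 (0.74 to 1.46), although Ikzf2 RNA was lower in that gate. An intergenic peak before Foxp3, chrX:7551004-7551977, had 20.2 against 7.87 in the knockout library and 18.00 against 7.69 in the control library (1.36, 0.85 to 1.86, and 1.23, 0.68 to 1.72) in a gate without Foxp3 UMIs by its rule. A peak within another gene upstream of Ikzf4, chr10:128710314-128711232, gave Cd3-negative over other Cd3-positive log2 ratios of 1.30 (0.34 to 2.12) and 1.98 (0.99 to 2.86). A second Ikzf2 intronic peak, chr1:69667349-69668263, gave 0.87 (-0.01 to 1.76) and 0.61 (-0.22 to 1.43) there and 0.48 (-0.50 to 1.41) and 0.88 (-0.11 to 1.75) in Foxp3-positive over other Cd3-positive nuclei. The other 10 peaks chosen by the same rule of extremes had Foxp3-positive over other Cd3-positive log2 ratios of -0.62 to 0.65 over both libraries.

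The start-site peaks of the Ikaros genes were open in every gate. The Ikzf5 peak, which also overlaps Acadsb, had 93.6, 80.8 and 92.1 peak CPM in Foxp3-positive, Cd3-negative Kit/Il1r1-positive and other Cd3-positive knockout nuclei and 91.4, 85.3 and 90.4 in the control nuclei. The Ikzf2 peak had 45.3, 54.99 and 45.9 (knockout) and 43.9, 51.5 and 42.7 (control), and the Ikzf1 peak over the sequence with 44 CpG 27.4, 36.3 and 30.97 and 24.8, 35.6 and 31.6. The peak over the internal Ikzf1 start, with 1 CpG, had 12.7, 17.5 and 18.2 and 16.5, 14.6 and 18.3. The Ikzf3 peak had 30.7, 22.8 and 28.9 and 24.6, 19.5 and 31.6, and the Ikzf4 peak 20.7, 15.5 and 18.97 and 17.9, 13.5 and 19.9. Between Cd3-negative and other Cd3-positive nuclei, these start-site peaks differed by less than Ikzf2 and Ikzf3 RNA did.

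**Figure D5:**
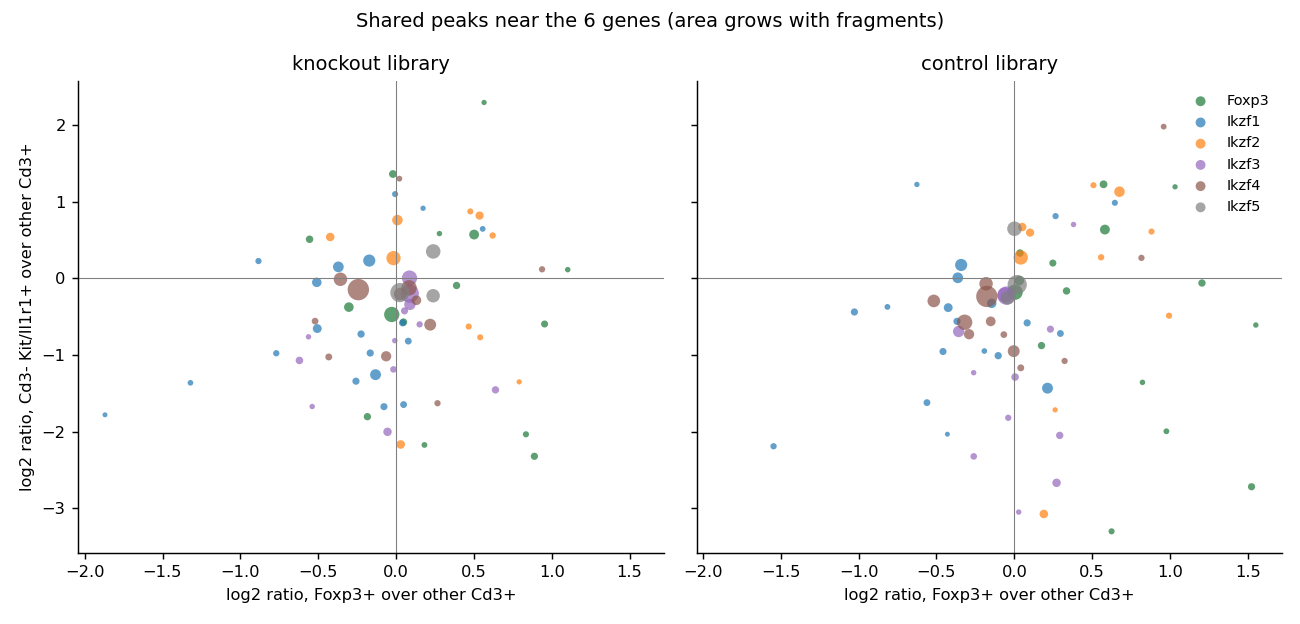
Log2 ratio of accessibility in Cd3-negative Kit/Il1r1-positive over other Cd3-positive nuclei (y axis) against that in Foxp3-positive over other Cd3-positive nuclei (x axis) for the 71 shared peaks near the 6 genes, in the knockout library (left) and the control library (right), 1 colour per gene, with point area growing with fragments. The Foxp3 intronic peak lies at 0.89 and -2.32 in the knockout library and at 1.52 and -2.72 in the control library.

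Between genotypes, 18 of 62 peaks near the 6 genes were past a log2 ratio of 0.5 in size in Foxp3-positive nuclei, where 26.3% of all shared peaks were, and 15 of them were lower in the knockout library, as were 11.9% of all shared peaks. In other Cd3-positive nuclei 12 of 71 were past it (19.7% of all), 11 of them lower (6.90% of all), and in Cd3-negative Kit/Il1r1-positive nuclei 11 of 56 (21.6% of all). All 6 such peaks near Foxp3 in Foxp3-positive nuclei were lower in the knockout library. The median log2 ratio of the peaks near the 6 genes was -0.17 in Foxp3-positive, -0.07 in other Cd3-positive and -0.13 in Cd3-negative Kit/Il1r1-positive nuclei, against 0.01, 0.03 and 0.00 over all shared peaks. Leaving out deep nuclei left fewer peaks with at least 20 fragments and fewer calls in Foxp3-positive nuclei, 6 of 28 (all shared peaks 26.9%). Of these 3 were higher and 3 lower in the knockout library (all lower 14.4%), the 2 near Foxp3 among the lower ones. In other Cd3-positive nuclei 15 of 66 then passed (all 23.8%), 12 of them lower (all 9.31%), and in Cd3-negative Kit/Il1r1-positive nuclei 16 of 53 (all 21.8%). The medians near the 6 genes were then -0.06, -0.12 and -0.04 in Foxp3-positive, other Cd3-positive and Cd3-negative Kit/Il1r1-positive nuclei, against -0.01, 0.02 and 0.00 over all shared peaks.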

How the data were processed

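Gene and peak counts per nucleus were used as deposited by the authors, made with Cell Ranger ARC 2.0.1 on mm10, per the submitters' processing notes and the file headers. Peak counts were taken as transposition ends, 2 to a fragment, since 90.7% (knockout) and 91.7% (control) of the values were even, and intervals used fragments. The filter required 500 UMIs, 300 detected genes and no more than 10% of UMIs from mitochondrial genes, and it left 2346 of 2391 knockout and 4176 of 4223 control barcodes; no doublet caller was run. UMIs were summed per gate and library and scaled to a level per 1000000 UMIs, and log2 ratios took a pseudocount of 0.5 count. Intervals were Poisson for levels, Clopper-Pearson for shares and exact conditional for ratios; PCR and capture were not covered. Peaks of both libraries that overlapped by at least 1 base made a shared region.

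The 6 genes and all lists were chosen with earlier results of these data known. Other genes with values were, per member, the 3 most alike over subgates and up to 4 from each list at the ends of the Foxp3-positive over other Cd3-positive ratio; peaks were those over start sites and the most extreme with at least 100 fragments. The internal Ikzf1 start, the exonic Foxp3 peaks, Cd4 and the 3 peaks low in Cd3-negative nuclei were added after their values were seen. Alternatives were stricter gates, other scalings, pseudocounts and windows, thinning to 1000 UMIs and leaving out deep nuclei; 2 more were added after seeing the data (a mean over nuclei, and leaving out nuclei with Kit or Il1r1 UMIs). A division of the Foxp3-positive gate by lineage factors is not reported here. The ratio and interval code was tested on simulated counts. Python 3.11.15, numpy 2.4.6, scipy 1.17.1, pandas 2.3.3 and matplotlib 3.10.9 were used.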

Additional observations from a re-analysis of the deposited data

Results flagged for a closer look

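Ikzf4 RNA pointed in opposite directions in 2 gates under the same contrast. The log2 ratio of knockout over control was -0.86 (-1.36 to -0.37) in Foxp3-positive nuclei, on 62 knockout and 86 control UMIs, and 1.10 (0.03 to 2.26) in Cd3-negative Kit/Il1r1-positive nuclei, on 19 and 13 UMIs. With 1 library per genotype this difference was not tested. Without deep nuclei the Foxp3-positive value was 0.27 (-0.59 to 1.06).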

How the results depend on the processing

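Of 3119 alternative values of 289 results, 2914 stayed within their interval, 193 moved and 12 reversed, and 2886 kept their sign. The Foxp3-positive over other Cd3-positive log2 ratio of Ikzf2 was 1.07 in the knockout and 1.02 in the control library without deep nuclei, 0.96 and 0.97 after thinning before gating, 0.91 and 0.96 as a mean over nuclei and 1.09 and 1.04 without nuclei that held Kit or Il1r1 UMIs. It was 0.73 in the control library with 2 Cd3 UMIs required. The knockout ratio of Ikzf4 was 1.35, 1.94, 0.95 and 1.42 under the same 4 alternatives. For knockout over control in Foxp3-positive nuclei, Ikzf4 reversed to 0.27 without deep nuclei and 1.02 after thinning, and was -0.079 as a mean over nuclei and -0.10 without Kit or Il1r1 nuclei; Ikzf2 was 0.27, 0.21, 0.11 and 0.24 in the same order and -0.12 with 2 Foxp3 UMIs required, and Ikzf1 was 0.27 without deep nuclei. Between Cd3-negative Kit/Il1r1-positive and other Cd3-positive nuclei, scaling by the median of ratios gave -1.04 (knockout) and -1.08 (control) for Ikzf2, and the mean over nuclei -1.75 for Ikzf3 in the knockout library.

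The share of Foxp3-positive nuclei was 3.98% (knockout) and 3.32% (control) with 2 Foxp3 UMIs required, 12.3% and 11.9% with 2 Cd3 UMIs, 6.98% and 8.13% without deep nuclei, 3.93% and 4.46% after thinning, 7.87% and 8.63% without Kit or Il1r1 nuclei, and 8.7% in the control library with a Cd3 UMI required. The Foxp3 intronic peak stood at 1.69 and 2.06 between the T-cell gates without deep nuclei, at 1.75 in the knockout library without Kit or Il1r1 nuclei, and at -0.20 for knockout over control under that setting. Single peaks reversed for knockout over control: the Foxp3 start-site peak in Cd3-negative nuclei (0.13 with 2 Kit or Il1r1 UMIs, 0.53 after thinning), and in Foxp3-positive nuclei chr11:11668477-11669468 near Ikzf1 (0.13 without deep nuclei, 0.29 after thinning, 0.25 without Kit or Il1r1 nuclei) and, near Ikzf2, chr1:69637883-69638814 (0.41 without deep nuclei), chr1:69667349-69668263 (0.33, 0.11 and 0.61 under those 3 settings) and chr1:69688700-69689616 (0.15 with 2 Foxp3 UMIs). Ikzf2 UMIs were found in 88.6% of Foxp3-positive and 62.7% of other Cd3-positive knockout nuclei, and 79.2% and 58.3% of control nuclei, when thinned to 2000 UMIs. The cause of these moves was not tested. No paired analysis was possible because there was 1 library per genotype, so no replicate could be left out either. Depth limits Ikzf4, Ikzf5 and single peaks, which rest on few molecules per gate.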
